A study of Mus musculus with 17 samples.

Results

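Prospermatogonia, the germ cells of the newborn testis, were followed through 45 genes of germ cell identity and of the piRNA pathway. These genes were chosen by name, and each was found in the deposited table through the symbol that the GENCODE mouse annotation pairs with its Ensembl identifier. They make up 45 of the 55359 genes of the table. RNA was sequenced from testes and forebrain of male mice of the *Ocn*GK strain, kept on a 129/SvEv background, at postnatal day 1. In this strain osteocalcin was deleted by homologous recombination, and osteocalcin is a hormone made by bone. WT pups had WT mothers, and they gave 2 testes and 3 forebrain libraries. *Ocn*+/− and *Ocn*−/− pups all had *Ocn*−/− mothers, and each genotype gave 3 testes and 3 forebrain libraries. The genotype of the pup, the genotype of the mother and the litter therefore cannot be told apart between WT and mutant pups, whereas *Ocn*+/− and *Ocn*−/− pups share the genotype of their mothers. The brain tissue is labeled hippocampus and is called forebrain here, as in the study. No source states which pups were littermates, so p-values measure the spread between these libraries only.

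Prospermatogonia are enclosed with Sertoli cells in the cords of the fetal and newborn testis, where they stop dividing and rebuild the DNA methylation of the male germ line. During this time small RNAs bound by PIWI proteins, the piRNAs, guide the cleavage of retrotransposon transcripts and the methylation of retrotransposon DNA. Tudor domain proteins bring the PIWI proteins and their partners together in cytoplasmic granules, and DNMT3L assists the methyltransferases that write the mark. Around birth the cells resume division and turn into spermatogonia, which depend on receptors for GDNF and, once differentiating, on KIT.

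A library held between 7302401 and 8289015 counts in testes and between 6518151 and 14621584 in forebrain. The forebrain library WT 3 was the smallest and stood apart, since an 18S ribosomal RNA gene took 8.5% of its counts, while the leading gene of the other 16 libraries took 1% to 1.56%. The deleted gene could not serve as a check of the genotypes, with only 0 to 2 counts of *Bglap* in a testis and 0 to 5 in a forebrain, and no count of *Bglap2* in any library, which allows up to 3. The neuron markers *Tubb3* and *Neurod6* had 1690 to 2190 and 293 to 456 CPM in forebrain. Levels are given as CPM, a gene's count scaled to the TMM-normalized size of its library, and as CPM per kilobase of exon wherever genes are compared with each other. A gene was called when its adjusted p in edgeR's quasi-likelihood test was under 0.05, with Benjamini-Hochberg adjustment over all genes tested in a tissue.

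Promoter sequences of 7 of the 8 genes called in testes are shown for a hexamer that recurs before these 45 genes. Each stretch holds the 100 bases before the start of the Ensembl canonical transcript, from the reference genome GRCm39, 5′ to 3′ on the strand of the gene. Capitals mark CACGTG, the palindromic E-box that MYC, MAX and related proteins bind. The first 5 genes were called lower in at least 1 comparison of mutant with WT testes, *Stk31* in *Ocn*+/− testes only, and the last 2 were called higher.
*Tdrd9*, chr12:111937865-111937964, plus strand: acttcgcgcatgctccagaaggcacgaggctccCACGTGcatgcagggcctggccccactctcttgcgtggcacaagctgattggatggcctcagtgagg
*Stk31*, chr6:49372373-49372472, plus strand: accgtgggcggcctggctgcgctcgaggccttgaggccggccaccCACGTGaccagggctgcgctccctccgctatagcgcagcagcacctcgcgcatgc
*Brdt*, chr5:107478924-107479023, plus strand: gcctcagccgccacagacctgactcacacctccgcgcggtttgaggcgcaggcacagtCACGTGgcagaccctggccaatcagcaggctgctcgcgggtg
*Dnmt3l*, chr10:77885576-77885675, plus strand: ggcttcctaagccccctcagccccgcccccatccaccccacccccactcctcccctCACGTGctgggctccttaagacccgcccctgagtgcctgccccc
*Piwil4*, chr9:14652037-14652136, minus strand: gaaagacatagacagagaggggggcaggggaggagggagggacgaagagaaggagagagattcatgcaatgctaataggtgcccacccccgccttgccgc
*Sohlh2*, chr3:55089305-55089404, plus strand: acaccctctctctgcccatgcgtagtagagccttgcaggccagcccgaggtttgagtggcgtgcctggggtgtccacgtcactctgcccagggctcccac
*Lin28a*, chr4:133746174-133746273, minus strand: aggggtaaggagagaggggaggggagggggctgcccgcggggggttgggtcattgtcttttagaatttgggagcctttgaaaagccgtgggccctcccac

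CACGTG and GCGGGAA, the core of a site bound by E2F proteins, were then searched, on both strands, in the 250 bases before the start of all 45 genes and of the 21627 protein-coding genes of the annotation. CACGTG stood before 11 of the 45 genes (24.4%) and before 6.29% of all protein-coding genes. GCGGGAA stood before 4 of the 45 (8.89%) and before 4.66% of all. Both motifs together stood before *Sycp3* and *Hormad1*, 2 genes of meiosis, which is 4.44% against 0.356% of all. The other genes with CACGTG were *Mov10l1*, *Pld6*, *Mael*, *Tdrd1*, *Tdrd9*, *Stk31*, *Dnmt3l*, *Sohlh1* and *Brdt*. Of all 11, *Mov10l1*, *Pld6*, *Tdrd1* and *Sohlh1* had log2 fold changes above 0, without a call, when both mutant genotypes were compared with WT testes. The rest had values below 0. By their letters the motifs can share at most 1 base, and a match describes letters in the genome and no binding. The share of C and G was also higher before these genes, with a median of 56.8% against 53.2% of all. Both motifs contain the pair CG, and its median number in the 250 bases was 12 before these genes against 8 before all. Its part in the motif shares was not tested.

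Most of the genes were expressed in newborn testes and barely or not in forebrain. In testes 43 of the 45 had enough counts to be tested. The others were *Nanos2*, which sustains male germ cell fate, and *Figla*, an oocyte transcription factor. *Nanos2* had 0 to 5 counts per testis and *Figla* 0 to 4. *Mael*, whose product acts in piRNA granules, had the highest level per length, with a mean over the 8 testes of 40.3 CPM per kilobase and a range of 30.9 to 50.7. It was followed by *Dmrt1*, a transcription factor of germ and Sertoli cells, at 40 (27.9 to 47.5) and by *Dazl*, an RNA-binding protein that licenses germ cells, at 32.9 (28.8 to 37.5). These 3 ranges overlap. *Ddx4*, the germ cell RNA helicase also called mouse vasa homolog, came next at 19.9 CPM per kilobase, with a range of 17.7 to 22.2 that lies below those 3 ranges. *Tex19.1*, which restrains retrotransposons, followed at 16.8 (15.5 to 18.5), and its range overlaps that of *Ddx4*. At the low end, *Dnmt3l* had 1.35 CPM per kilobase, *Pld6*, the nuclease that cuts piRNA precursors at mitochondria, 1.07, and *Tdrd6*, known from later germ cell granules, 0.321.

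Between tissues, 36 of the 43 genes tested were higher in testes (44.5% of the 17800 genes tested were) and 4 were lower (39.9% were). Only 18 of the 43 had enough counts in forebrain to be tested there, so most of the higher genes entered through testes alone and the split is set largely by the filter on low counts. Of the 11 genes with at least 10 counts in every library of both tissues, 5 were higher in testes and 4 were lower, beside 10458 of 12300 genes called at that filter. All 3 genes of DNA methylation and retrotransposon silencing and all 5 pluripotency and progenitor factors were among the higher ones. So were all 4 genes of meiosis and both genes of the cell surface and the intercellular bridge. Of the genes of these roles only *Zbtb16*, *Sycp3*, *Brdt* and *Tex14* passed the filter in forebrain, so the others entered through testes alone. *Dppa4* and *Stra8* had 0 counts in all 9 forebrains. By the bound that 3 counts per forebrain library give, *Dppa4*, a chromatin factor of early germ cells, was at least 48.2-fold and *Stra8*, which starts meiosis under retinoic acid, at least 10.6-fold higher in testes. In all, 16 of the 45 genes had at most 3 counts in every forebrain, and for these the size of a fitted difference depends on the fit's prior count.

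The genes lower in testes were *Elavl2* and *Ddx25*, both RNA regulators, *Tdrkh*, a Tudor protein of mitochondria that serves piRNA trimming, and *Kit*. Levels were scaled within each tissue and fitted differences over both tissues together, so that the ratio of the levels departs from the fitted difference. The scaling moved the median difference of all genes from 0.09 on the log2 scale with TMM to 0.4 with library size alone. *Elavl2*, known from neurons as well as germ cells, had a level of 15.6 CPM per kilobase in forebrain and 2.23 in testes, and a fitted log2 difference of −3.12 (SE 0.0681, adjusted p = 5.79e-23). *Kit* had 8.59 CPM per kilobase in forebrain and 3.13 in testes, and a fitted difference of −1.83 (SE 0.082, adjusted p = 1.51e-16). The fitted differences of *Tdrkh* and *Ddx25* were −2.46 and −1.62. *Pld6*, *Tdrd6* and *Tdrd7*, a Tudor protein also known from the lens, did not pass the test, with log2 differences of 0.28 (SE 0.188), −0.15 (SE 0.283) and −0.15 (SE 0.0769), and with levels scaled within each tissue *Tdrd6* and *Tdrd7* were slightly higher in testes instead. *Nanos2* was not part of the test, and its level was 0 to 0.648 CPM in testes and 0.151 to 1.94 CPM in forebrain. Of the exon bases of *Nanos2*, 49.01% overlap *Gm45058*, a noncoding RNA on the opposite strand, and no source used here states whether the libraries kept strand, so reads of both cannot be told apart. For *Tdrkh* the overlap with *Oaz3*, also on the opposite strand, is 32.94%, and 38.4% of the 50-base stretches of *Tdrkh* also occur in transcripts of other genes.

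**Figure D1:**
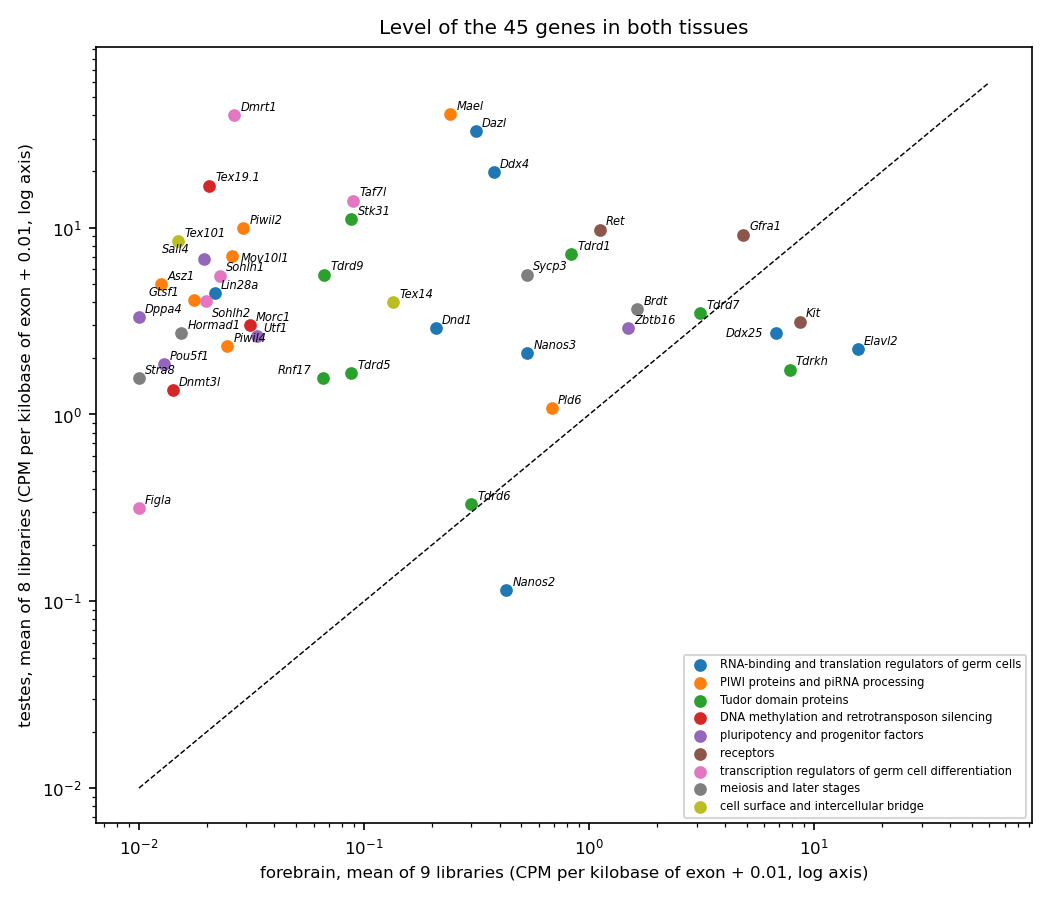
Mean level of each of the 45 genes in 9 forebrains (horizontal) and 8 testes (vertical), in CPM per kilobase of exon plus 0.01 on log axes, colored by role, scaled within each tissue, with a dashed line where both are equal. *Mael*, *Dmrt1* and *Dazl* stand highest in testes, while *Elavl2*, *Tdrkh*, *Ddx25*, *Kit* and the untested *Nanos2* lie below the line.

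The summed level of the 45 genes overlapped between WT and mutant testes, and a few of the genes changed, some up and some down. Against WT, *Ocn*+/− testes had 3 higher genes, *Lin28a*, *Ret* and *Sohlh2*, and 3 lower genes, *Tdrd9*, *Stk31* and *Brdt*, of 43 tested. This is 6.98% in each direction, beside 3.89% higher and 4.36% lower of the 16361 genes tested in testes. *Ocn*−/− testes had 2 higher genes, *Ret* and *Sohlh2*, and 1 lower gene, *Tdrd9* (4.65% and 2.33%, beside 2.54% and 3.09% of all genes). When the mean of both mutant genotypes was compared with WT, *Lin28a*, *Ret* and *Sohlh2* were higher and *Tdrd9*, *Dnmt3l*, *Piwil4* and *Brdt* were lower (6.98% and 9.3%, beside 4.51% and 5.43% of all genes). Each of these shares rests on 1 to 4 genes. Over the 43 genes the log2 fold change had a median of −0.05 in *Ocn*+/−, −0.01 in *Ocn*−/− and −0.03 in both, and over all genes it was 0.01, −0.01 and 0. With library size alone as scaling, *Mov10l1* was called higher as well and *Stk31* was not in *Ocn*+/− testes, giving 4 higher and 2 lower, and for both mutants *Mov10l1* joined and *Piwil4* dropped out, giving 4 higher and 3 lower. Over all genes 1551 and 1834 were called with that scaling.

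These counts rest on few libraries. Without WT testis 1 the number of genes called was 0 in *Ocn*+/−, 0 in *Ocn*−/− and 3 in both mutants, beside 131, 231 and 286 of 17099 genes tested. Without WT testis 2 it was 1, 0 and 1, beside 118, 85 and 125 of 17070, so calls over all genes, 1350, 922 and 1626 with all libraries, also became fewer. In these fits the remaining WT testis is assumed to vary like the other genotypes. Without *Ocn*+/− testis 2 it was 11 in *Ocn*+/−, 5 in *Ocn*−/− and 11 in both, beside 2019, 1185 and 2198 of 16205 genes. In *Ocn*+/− the added genes were *Dnmt3l*, *Dppa4*, *Mael*, *Morc1* and *Mov10l1*. Without *Ocn*+/− testis 1 the numbers were 3 in *Ocn*+/− and 5 in *Ocn*−/− (352 and 965 of all 16281 genes), and without *Ocn*+/− testis 3 there were 3 in *Ocn*+/− (459 of 16280). *Ret*, *Sohlh2* and *Tdrd9* were the 3 genes called in *Ocn*+/− testes when testis 1 or 3 of that genotype was left out.

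**Figure D2:**
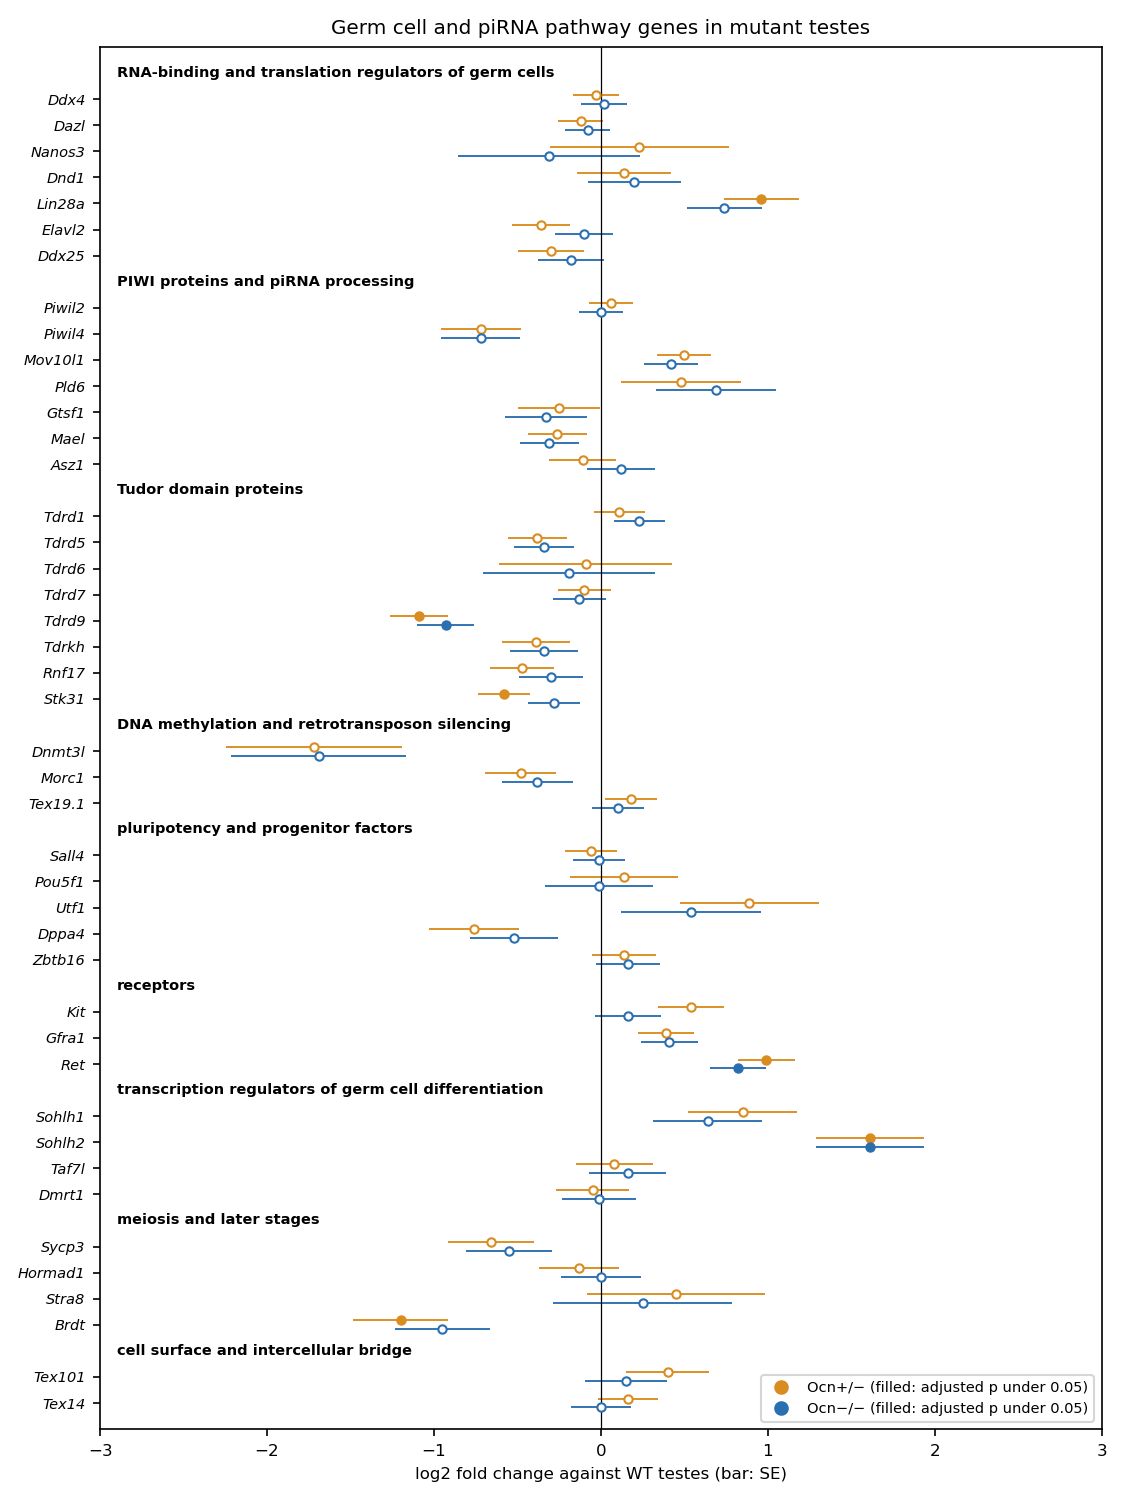
Log2 fold change against WT testes of the 43 genes tested, by role, in *Ocn*+/− (orange) and *Ocn*−/− (blue) testes, with bars for the SE and filled points for an adjusted p under 0.05. *Sohlh2* lies farthest to the right at 1.61 in both genotypes and *Dnmt3l* farthest to the left at −1.72 and −1.69 without a call in either, while *Ddx4*, *Piwil2*, *Sall4* and *Dmrt1* lie near 0.

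*Ddx4* and *Dazl*, which mark germ cells regardless of stage, had like levels in all genotypes. *Ddx4* had 81.5 and 65 CPM in WT testes, 69.1, 72.8 and 72.6 in *Ocn*+/− and 65.1, 79.9 and 78.5 in *Ocn*−/− testes. *Dazl* had 144 and 125 CPM in WT, 119, 135 and 117 in *Ocn*+/− and 112, 146 and 125 in *Ocn*−/− testes. All groups overlap in both genes, and the log2 fold changes were −0.03 (SE 0.138, adjusted p = 0.906) and 0.02 (SE 0.138, adjusted p = 0.939) for *Ddx4* and −0.12 (SE 0.134, adjusted p = 0.599) and −0.08 (SE 0.134, adjusted p = 0.76) for *Dazl*, in *Ocn*+/− and *Ocn*−/− testes respectively. The 4 germ cell markers *Ddx4*, *Dazl*, *Tex101* and *Mael* together summed to 326 and 277 CPM in WT, 261, 310 and 268 in *Ocn*+/−, and 264, 296 and 285 in *Ocn*−/− testes. All 45 genes together summed to 1180 to 1300 CPM in WT and 1160 to 1260 CPM in mutant testes, which overlap. In a bulk sample fewer cells of a type and less RNA per cell cannot be told apart.

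Among the regulators of RNA and translation, *Lin28a* was higher in *Ocn*+/− testes. Its product blocks the maturation of let-7 and is known from primordial germ cells and early spermatogonia (GRCm39 chromosome 4, 133730641 to 133746173, minus strand, ENSMUSG00000050966). *Lin28a* had 12.3 and 10.1 CPM in WT testes, 22.6, 20.2 and 22.7 in *Ocn*+/− and 14.9, 17.6 and 23.5 in *Ocn*−/− testes, so that all 6 mutant testes were above both WT testes. *Lin28a* changed by a log2 fold of 0.96 (SE 0.224, adjusted p = 0.0178) in *Ocn*+/−, 0.74 (SE 0.224, adjusted p = 0.0637) in *Ocn*−/− and 0.85 (SE 0.205, adjusted p = 0.0182) in both. The call in *Ocn*+/− was lost without either WT testis and without *Ocn*+/− testis 1 or 3, and that for both mutants without either WT testis. None of the other 6 genes of this role that were tested passed in either genotype. *Elavl2* and *Ddx25* had −0.36 and −0.3 in *Ocn*+/− testes, and *Dnd1*, which protects mRNAs from microRNAs, had 0.14. *Nanos3*, which keeps primordial germ cells alive, had 7 to 26 counts per testis and changes of 0.23 (SE 0.537) and −0.31 (SE 0.546), so that only a large change was detectable at this depth.

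Among the PIWI proteins and the processing of piRNAs, *Piwil4* was lower when both mutant genotypes were compared with WT. It encodes MIWI2, the PIWI protein that enters the nucleus of prospermatogonia and directs methylation (chromosome 9, 14607526 to 14652036, minus strand, ENSMUSG00000036912). *Piwil4* had 18 and 17.3 CPM in WT, 10.4, 9.09 and 12.8 in *Ocn*+/− and 10.8, 8.16 and 13.1 in *Ocn*−/− testes, all 6 mutant testes below both WT testes. *Piwil4* had a log2 fold change of −0.72 in each comparison, with an adjusted p of 0.0707 in *Ocn*+/−, 0.0825 in *Ocn*−/− and 0.0392 in both (SE 0.239, 0.238 and 0.208). It was lost with library size alone (0.0595) and when any 1 of 5 testes was left out: WT 1, WT 2, *Ocn*+/− 1, *Ocn*+/− 2 or *Ocn*−/− 1. *Piwil2*, whose product MILI loads piRNAs in the cytoplasm, had 60.6 and 54 CPM in WT and 52.5 to 61.1 CPM in mutant testes, and its log2 fold changes were 0.06 (SE 0.131) and 0 (SE 0.131). Whether the changes of the 2 PIWI genes differed from each other was not tested.

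*Mael* had 87.8 and 74.9 CPM in WT, 53.9, 88.7 and 61.7 in *Ocn*+/− and 71.8, 60.3 and 64.7 in *Ocn*−/− testes (chromosome 1, 166028770 to 166066331, minus strand, ENSMUSG00000040629). *Ocn*+/− testis 2 was the highest of all 8, and the other 5 mutant testes were below both WT testes. Its log2 fold changes were −0.26 (SE 0.178, adjusted p = 0.386) and −0.31 (SE 0.177, adjusted p = 0.315). *Mov10l1*, the helicase that selects piRNA precursors, had 26.7 and 22.6 CPM in WT testes and 31.3 to 38.1 in mutant testes, which do not overlap, with 0.5 (adjusted p = 0.0624) and 0.42 (adjusted p = 0.134). *Gtsf1*, a partner of PIWI proteins, had 10.6 and 9.59 CPM in WT and 7.26 to 9.46 in mutant testes, with −0.25 and −0.33 (adjusted p = 0.553 and 0.458). *Asz1* and *Pld6*, which act on mitochondria, had log2 fold changes of −0.11 and 0.48 in *Ocn*+/− and 0.12 and 0.69 in *Ocn*−/− testes, with adjusted p from 0.262 to 0.772.

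The Tudor domain proteins held the lower gene with the smallest adjusted p of the 43. *Tdrd9* encodes the Tudor helicase that works with MIWI2 in the silencing of LINE-1 elements (chromosome 12, 111937965 to 112035290, plus strand, ENSMUSG00000054003). *Tdrd9* had 52.3 and 45.7 CPM in WT, 19.7, 27.6 and 21.6 in *Ocn*+/− and 28.1, 24.7 and 24.3 in *Ocn*−/− testes. All 6 mutant testes were far below both WT testes. *Tdrd9* fell by 1.09 on the log2 scale (SE 0.172, adjusted p = 0.0021) in *Ocn*+/−, and its log2 fold change was −0.93 (SE 0.171, adjusted p = 0.00541) in *Ocn*−/− and −1.01 (SE 0.148, adjusted p = 0.000668) in both. The call for both mutants held in all 15 alternatives run, with log2 fold changes from −1.09 to −0.9 and an adjusted p of at most 0.0398. Without WT testis 1 the adjusted p was 0.0538 in *Ocn*+/− and 0.0845 in *Ocn*−/−, and without WT testis 2 the call in *Ocn*−/− was lost as well.

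*Stk31*, a germ cell protein with a Tudor and a kinase-like domain (chromosome 6, 49372473 to 49446440, plus strand, ENSMUSG00000023403), was lower in *Ocn*+/− testes. It had 56.5 and 50.6 CPM in WT, 35.2, 39.9 and 32 in *Ocn*+/− and 43.5, 50.6 and 38.4 in *Ocn*−/− testes, so that *Ocn*−/− testis 2 came close to WT testis 2. Its log2 fold change of −0.58 (SE 0.156, adjusted p = 0.0323) in *Ocn*+/− testes passed the test, and that of −0.28 (SE 0.155, adjusted p = 0.3) in *Ocn*−/− testes did not. The genotypes differed by 0.31 (SE 0.142, adjusted p = 0.427), so a difference between them was not shown. The call in *Ocn*+/− was lost with library size alone (0.0525), without either WT testis and without *Ocn*+/− testis 1 or 3.

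Of the 8 Tudor genes, 7 had values below 0 in both genotypes, with medians on the log2 scale of −0.39 for *Ocn*+/− and −0.29 for *Ocn*−/−, beside 0.01 and −0.01 over all genes. The summed level of the 8 was 225 and 244 CPM in WT and 171 to 200 CPM in mutant testes, and *Tdrd9* and *Stk31* made up most of that gap. *Tdrd5*, *Tdrkh* and *Rnf17* had all 6 mutant testes below both WT testes without passing the test, with −0.38, −0.39 and −0.47 in *Ocn*+/− (adjusted p = 0.189, 0.235 and 0.137) and −0.34, −0.34 and −0.3 in *Ocn*−/− testes (adjusted p = 0.264, 0.338 and 0.359). *Tdrd1*, the scaffold of MILI granules, had values above 0, 0.11 and 0.23. *Tdrd7* had −0.1 and −0.13, and *Tdrd6* −0.09 and −0.19 at 9 to 27 counts per testis.

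**Figure D3:**
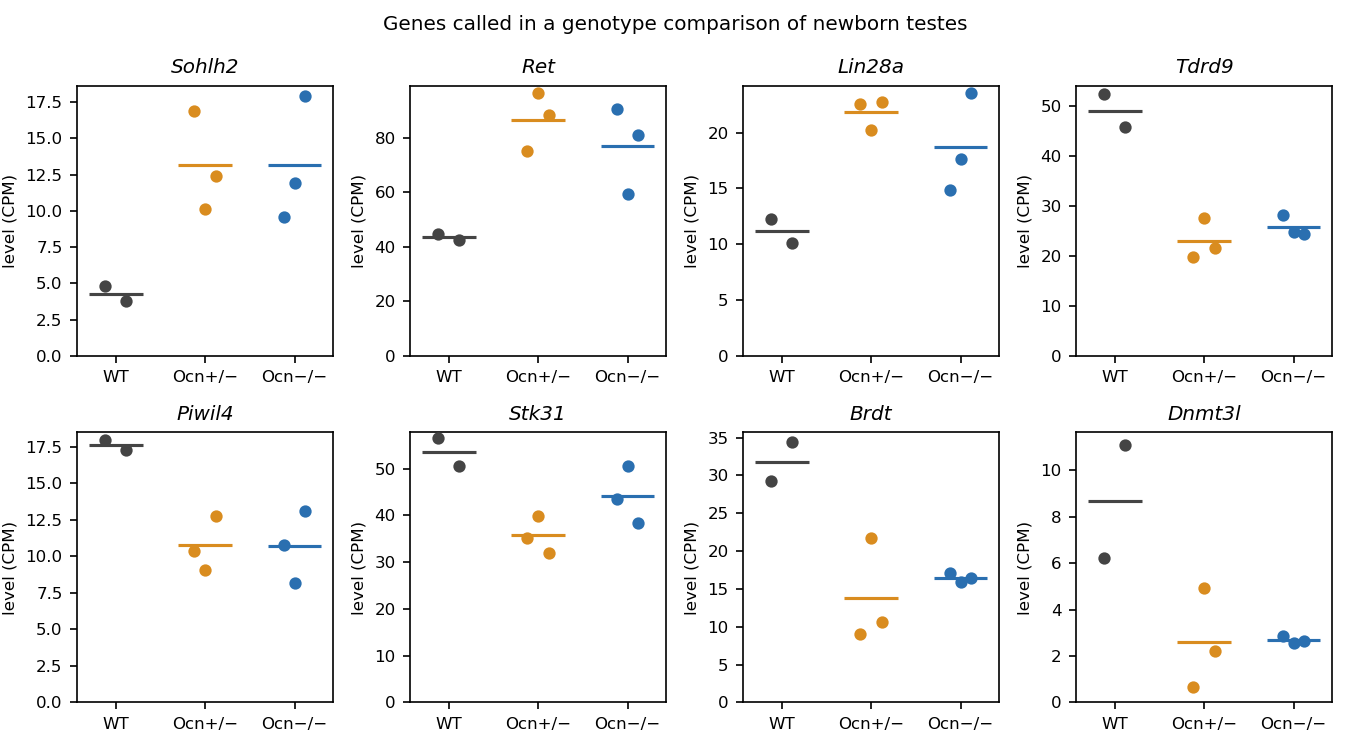
Level in CPM of the 8 genes called in at least 1 genotype comparison of testes, with a point for each library, 2 WT, 3 *Ocn*+/− and 3 *Ocn*−/−, and a bar for the mean. *Sohlh2*, *Ret* and *Lin28a* lie above both WT testes in all 6 mutant testes and the other 5 genes below or level with both, and *Ocn*+/− testis 2 (the middle point of its group) is the highest of its genotype for *Tdrd9*, *Stk31*, *Brdt* and *Dnmt3l*.

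*Dnmt3l*, the cofactor of methylation in prospermatogonia (chromosome 10, 77877781 to 77899456, plus strand, ENSMUSG00000000730), was lower when both mutant genotypes were compared with WT, at low counts. It had 6.22 and 11.1 CPM in WT, 0.664, 4.92 and 2.2 in *Ocn*+/− and 2.85, 2.55 and 2.65 in *Ocn*−/− testes, from 5 to 88 counts per testis. All 6 mutant testes were below both WT testes, *Ocn*+/− testis 1 at 5 counts was the lowest, and the spread within WT and within *Ocn*+/− was wide. The log2 fold change was −1.72 (SE 0.526, adjusted p = 0.0586), −1.69 (SE 0.523, adjusted p = 0.0758) and −1.7 (SE 0.443, adjusted p = 0.0299) in *Ocn*+/−, *Ocn*−/− and both. The call was lost without either WT testis, without *Ocn*+/− testis 3 and without *Ocn*−/− testis 1 (adjusted p up to 0.401). In *Ocn*+/− testes the value itself was −2.58 without testis 2 and reached −1.23 over the other alternatives. *Morc1*, which is needed to repress retrotransposons in male germ cells, had 36.5 and 36 CPM in WT and 19.8 to 34.1 in mutant testes, with −0.48 and −0.38 (adjusted p = 0.168 and 0.304). *Tex19.1* (chromosome 11, 121036969 to 121039145, plus strand, ENSMUSG00000039329) had 29.2 and 29.1 CPM in WT, 30.8, 33.7 and 34.4 in *Ocn*+/− and 30.3, 29.1 and 34.6 in *Ocn*−/− testes. These groups touch, and the log2 fold changes were 0.18 (SE 0.156, adjusted p = 0.504) and 0.1 (SE 0.156, adjusted p = 0.731).

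None of the 5 pluripotency and progenitor factors was called. *Sall4*, a zinc finger factor of germ cells and stem cells (chromosome 2, 168590252 to 168609863, minus strand, ENSMUSG00000027547), had 37.7 and 40.4 CPM in WT, 34.4, 42.7 and 35.5 in *Ocn*+/− and 42.8, 36.2 and 37 in *Ocn*−/− testes, which overlap. Its log2 fold changes were −0.06 (SE 0.154, adjusted p = 0.853) and −0.01 (SE 0.154, adjusted p = 0.97). *Pou5f1*, which encodes OCT4, had 0.14 and −0.01, and *Zbtb16*, which encodes PLZF of undifferentiated spermatogonia, had 0.14 and 0.16. *Dppa4* had 17.6 and 17 CPM in WT and 6.77 to 14.3 in mutant testes, which do not overlap, with −0.76 (SE 0.268, adjusted p = 0.084) and −0.52 (SE 0.265, adjusted p = 0.253). *Utf1*, a marker of undifferentiated spermatogonia, had 0.89 and 0.54 (adjusted p = 0.188 and 0.472).

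*Ret*, the signaling receptor for GDNF (chromosome 6, 118128706 to 118174769, minus strand, ENSMUSG00000030110), rose in both mutant genotypes. It had 44.7 and 42.5 CPM in WT, 75.2, 96.4 and 88.4 in *Ocn*+/− and 90.5, 59.6 and 81.1 in *Ocn*−/− testes. The lowest mutant testis, *Ocn*−/− 2, was well above both WT testes. The log2 fold change was 0.99 (SE 0.17, adjusted p = 0.00358), 0.82 (SE 0.169, adjusted p = 0.0109) and 0.91 (SE 0.155, adjusted p = 0.00237) in *Ocn*+/−, *Ocn*−/− and both. The calls in each genotype were lost without either WT testis, and that for both mutants without WT testis 2 (adjusted p = 0.0872). *Gfra1*, the co-receptor that binds GDNF, had 46.8 and 47.4 CPM in WT and 51.8 to 73.9 in mutant testes, all 6 above both WT testes. Its log2 fold changes were 0.39 (SE 0.17, adjusted p = 0.161) and 0.41 (SE 0.169, adjusted p = 0.155). Of the 50-base stretches of *Gfra1*, 22.9% also occur in transcripts of other genes, and 16.46% of its exon bases overlap *Gm16277* on the opposite strand. *Kit*, the receptor of stem cell factor, had 22.4 and 26.5 CPM in WT, 37.3, 34.4 and 34.7 in *Ocn*+/− and 24.3, 35.6 and 22 in *Ocn*−/− testes. The *Ocn*+/− testes were above WT and the *Ocn*−/− testes overlapped it, with 0.54 (adjusted p = 0.0988) and 0.16 (adjusted p = 0.677), and the 2 genotypes differed by −0.38 (SE 0.174, adjusted p = 0.42). The 3 receptors together summed to 114 and 116 CPM in WT and 148 to 205 CPM in mutant testes.

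*Sohlh2* had the greatest rise of the 43 genes in both genotypes. It encodes a basic helix-loop-helix factor that, with SOHLH1, leads spermatogonia toward differentiation (chromosome 3, 55089265 to 55117382, plus strand, ENSMUSG00000027794). *Sohlh2* had 4.79 and 3.79 CPM in WT, 16.9, 10.1 and 12.4 in *Ocn*+/− and 9.6, 11.9 and 17.9 in *Ocn*−/− testes, from 30 to 142 counts. Every mutant testis had more than either WT testis, and the ranges of both mutant genotypes overlapped. *Sohlh2* rose by a log2 fold of 1.61 (SE 0.324, adjusted p = 0.00862), 1.61 (SE 0.324, adjusted p = 0.00901) and 1.61 (SE 0.302, adjusted p = 0.00419) in *Ocn*+/−, *Ocn*−/− and both. The calls in each genotype were lost without either WT testis, and for both mutants the change without WT testis 2 was 1.47 (adjusted p = 0.124). *Sohlh1* had 4.92 and 5.17 CPM in WT, 6.51, 10.2 and 10.6 in *Ocn*+/− and 6.4, 6.37 and 10.9 in *Ocn*−/− testes. These were also above both WT testes, with 0.85 (SE 0.327, adjusted p = 0.111) and 0.64 (SE 0.327, adjusted p = 0.255), which did not pass.

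*Dmrt1* (chromosome 19, 25482860 to 25581693, plus strand, ENSMUSG00000024837) had 121 and 99.5 CPM in WT, 115, 75.7 and 129 in *Ocn*+/− and 86.2, 124 and 118 in *Ocn*−/− testes. The groups overlap, *Ocn*+/− testis 2 was the lowest, and the log2 fold changes were −0.05 (SE 0.22, adjusted p = 0.916) and −0.01 (SE 0.22, adjusted p = 0.985). *Taf7l*, a germ cell subunit of the general transcription machinery, had 0.08 and 0.16 (adjusted p = 0.859 and 0.712).

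*Brdt*, a bromodomain protein best known from meiotic and later cells (chromosome 5, 107479024 to 107534926, plus strand, ENSMUSG00000029279), was lower in *Ocn*+/− testes. It had 29.2 and 34.4 CPM in WT, 9.03, 21.7 and 10.6 in *Ocn*+/− and 17.1, 15.9 and 16.4 in *Ocn*−/− testes. All 6 mutant testes were below both WT testes, and *Ocn*+/− testis 2 was the mutant testis nearest to them. The log2 fold change was −1.2 (SE 0.286, adjusted p = 0.025) in *Ocn*+/−, −0.95 (SE 0.284, adjusted p = 0.0677) in *Ocn*−/− and −1.07 (SE 0.246, adjusted p = 0.0182) in both. Without *Ocn*+/− testis 2 the change in *Ocn*+/− was −1.68, and the call was lost without *Ocn*+/− testis 1 or 3 and, for both mutants as well, without either WT testis. Of the 50-base stretches of *Brdt*, 10.5% also occur in another gene.

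*Sycp3*, a component of the axis of meiotic chromosomes (chromosome 10, 88295431 to 88309099, plus strand, ENSMUSG00000020059), had 10.1 and 10.5 CPM in WT, 6.11, 5.8 and 7.56 in *Ocn*+/− and 6.99, 7.52 and 6.57 in *Ocn*−/− testes. The groups do not overlap, yet the log2 fold changes of −0.66 (SE 0.257, adjusted p = 0.113) and −0.55 (SE 0.255, adjusted p = 0.209) did not pass the test, and 48.46% of its exon bases overlap *Chpt1* on the opposite strand. *Hormad1* had −0.13 and 0, and *Stra8*, at 12 to 30 counts per testis, had 0.45 (SE 0.536) and 0.25 (SE 0.537). The 4 genes of meiosis and later stages summed to 54.8 and 56.5 CPM in WT and 28.8 to 40.5 CPM in mutant testes, and *Brdt* made up most of that gap. The lower sum is that of these 4 genes only. A list of other meiosis genes, given below, had a higher sum in mutant than in WT testes. *Tex101*, a surface protein of germ cells (chromosome 7, 24367432 to 24376100, minus strand, ENSMUSG00000062773), had 13.1 and 12.2 CPM in WT, 19.4, 13.6 and 17.1 in *Ocn*+/− and 15.6, 9.81 and 16.6 in *Ocn*−/− testes. These overlap, with 0.4 (SE 0.247, adjusted p = 0.326) and 0.15 (SE 0.247, adjusted p = 0.765), and *Tex14* of the intercellular bridge had 0.16 and 0.

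**Figure D4:**
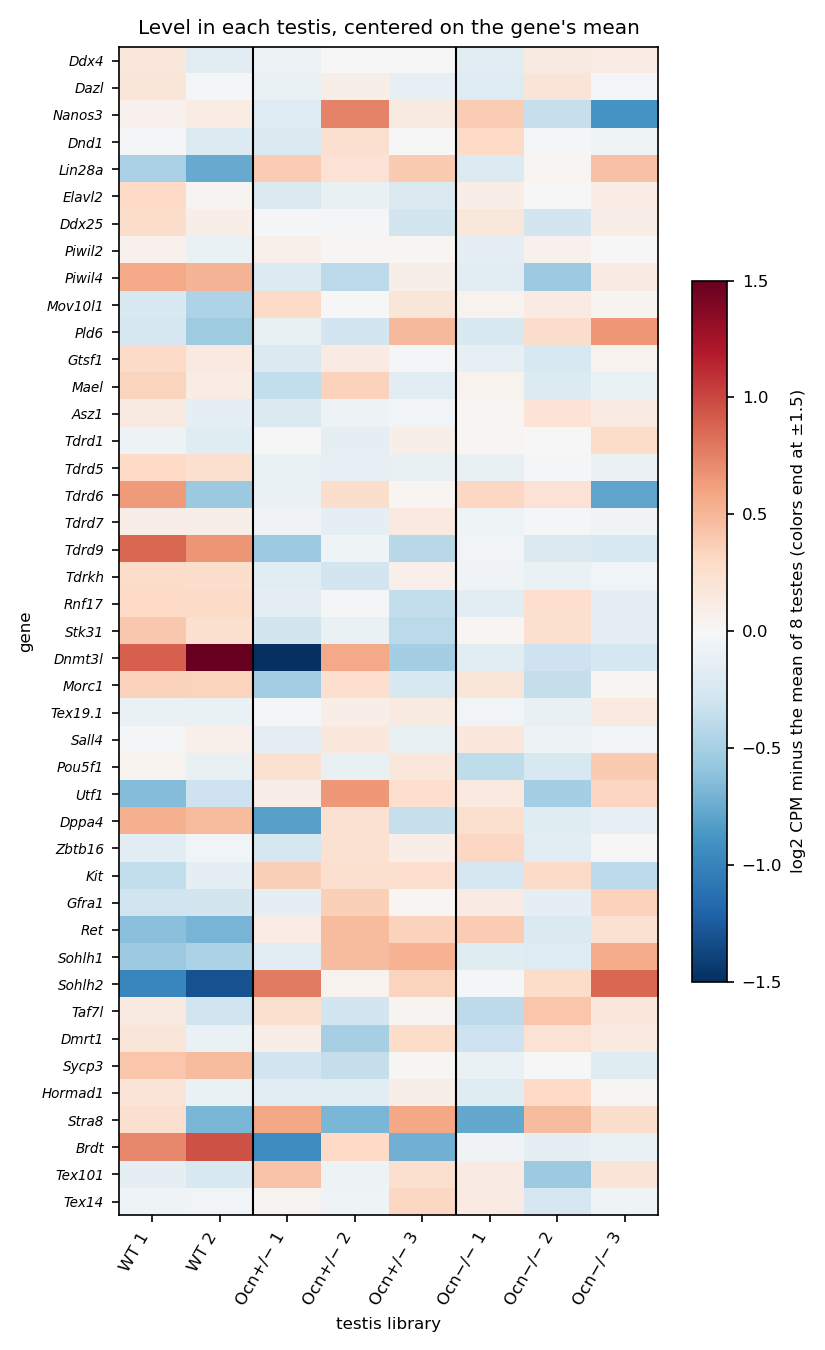
Log2 CPM of the 43 genes tested in each of the 8 testes, minus the mean of the gene over the 8 (red above, blue below, colors ending at 1.5), with black lines between WT, *Ocn*+/− and *Ocn*−/−. The WT columns stand out for *Tdrd9*, *Dnmt3l*, *Brdt*, *Piwil4*, *Sohlh2* and *Ret*, and the column of *Ocn*+/− testis 2 departs from its genotype for *Dnmt3l*, *Dppa4*, *Morc1*, *Mael*, *Brdt* and *Dmrt1*.

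In 18 of the 43 genes (41.9%) all 6 mutant testes lay on the same side of both WT testes, 6 above and 12 below. Over all 16361 genes this held for 26%, with 2037 above and 2223 below. The 6 above were *Lin28a*, *Mov10l1*, *Gfra1*, *Ret*, *Sohlh1* and *Sohlh2*. The 12 below were *Piwil4*, *Gtsf1*, *Tdrd5*, *Tdrd9*, *Tdrkh*, *Rnf17*, *Stk31*, *Dnmt3l*, *Morc1*, *Dppa4*, *Sycp3* and *Brdt*, with *Stk31* of *Ocn*−/− testis 2 equal to WT testis 2 at the digits given. Within each mutant genotype, testis 2 was the library most often at an end of the 3. *Ocn*+/− testis 2 was the highest or the lowest of the 3 *Ocn*+/− testes in 40 of 43 genes (93%), the highest in 21 and the lowest in 19, beside 74.2% of all genes. *Ocn*−/− testis 2 was at an end of its genotype in 35 of 43 genes (81.4%), beside 71% of all genes.

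Between *Ocn*−/− and *Ocn*+/− testes 0 of the 43 genes and 0 of the 16361 genes tested (0%) were called by edgeR. At an unadjusted p under 0.05 there were 2, *Kit* and *Stk31*, beside 1881 of all genes, and DESeq2 called 0 of the 43 and 70 of all. The median log2 difference was 0.04, beside −0.01 over all genes.

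Other genes of the same biology, listed apart from the 45, were also tested. Of 15 other piRNA pathway genes 14 were found and tested, and 12 of them had values above 0 in each mutant genotype. Their median log2 fold changes were 0.31 in *Ocn*+/− and 0.34 in *Ocn*−/− testes, beside 0.01 and −0.01 over all genes. *Fkbp6*, a co-chaperone of PIWI loading, was called higher in *Ocn*+/− (0.67, adjusted p = 0.0384), and with *Gpat2*, a mitochondrial enzyme needed for piRNA production, in both mutants (0.61 and 0.7, adjusted p = 0.034 and 0.0333). None of the 14 was called in *Ocn*−/− testes, where 5.64% of all genes were. Of 28 other genes of spermatogonia and primordial germ cells 24 were tested. *Bcl6b* and *Lhx1*, both known as targets of GDNF in spermatogonia, were higher for both mutants (0.6 and 1.11, adjusted p = 0.033 and 0.0198), and *Kdm1b*, a histone demethylase, *Itga6*, an integrin of spermatogonia also found in other cells, and *Tspan8* were lower (−0.52, −0.52 and −0.94, adjusted p = 0.029, 0.00836 and 0.0466). *Ccnd2*, a cyclin also present in somatic cells, was higher in *Ocn*−/− testes (0.47, adjusted p = 0.0437). The median over the 24 was 0.05 in *Ocn*+/− and 0.14 in *Ocn*−/− testes. Of 12 other meiosis genes *Smc1b* and *Stag3*, subunits of meiotic cohesin, were higher for both mutants (1.41 and 0.57, adjusted p = 0.00285 and 0.0328), and *Sycp2*, the partner of *Sycp3* on the chromosome axis, was lower (−0.66, adjusted p = 0.0178).

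Among the markers of other cells of the testis the endothelial list was lower in mutant testes, and the other lists had at most 1 gene called in each direction. All 5 endothelial markers were called lower for both mutants, beside 5.43% of all genes. In *Ocn*+/− testes 3 of them were called lower and in *Ocn*−/− testes 5. Their summed level was 529 and 544 CPM in WT and 311 to 390 CPM in mutant testes. Of 6 Leydig cell markers 5 had values below 0 and *Lhcgr*, the receptor of luteinizing hormone, was called lower in each genotype (−1.23 and −1.19, adjusted p = 0.00132 and 0.00149), with sums of 1690 to 1770 CPM in WT and 714 to 1250 in mutant testes. Of 10 Sertoli cell markers 8 had values above 0 and *Sox9*, the factor that sets Sertoli cell fate, was called higher (0.92 and 1.1, adjusted p = 0.0031 and 0.000777), and the sums of 2140 to 2360 CPM in WT and 2200 to 3270 CPM in mutant testes overlap. Peritubular myoid markers summed to 901 to 1120 CPM in WT and 662 to 981 in mutant testes with *Myh11* called lower for both mutants. Macrophage markers summed to 99.6 to 109 CPM in WT, 93.9 to 126 in *Ocn*+/− and 50.5 to 92.9 in *Ocn*−/− testes. Of these 6 genes, 4 had values below 0 in *Ocn*+/− and 5 in *Ocn*−/− testes, with medians of −0.03 and −0.63. *Cd68* was called higher, but no gene of this list was called in *Ocn*−/− testes. All 5 erythroid markers had values below 0 in each genotype, with medians of −1.03 and −1.41, and none was called. Their sums were 2600 to 6860 CPM in WT and 864 to 3940 in mutant testes. Adipocyte markers summed to 19.3 to 26.4 CPM over all testes, mostly *Plin1*, with *Cfd* at 0 in every testis and *Adipoq* and *Cidec* at most 0.474 and 0.237 CPM, while *Fabp4*, also found in endothelium, was called lower. Of the neuron markers in testes *Tubb3* had 16.8 to 40.5 CPM and was called higher for both mutants (0.75, adjusted p = 0.0417). The other of the 2 neuron markers tested had a value below 0 and was not called. *Neurod6*, *Slc17a7* and *Tbr1* had at most 1.01 CPM and *Gad1* at most 4.92 CPM. The part of these cells in the changes of the germ cell genes was not tested.

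In forebrain 18 of the 45 genes passed the filter, and none was called in *Ocn*+/− (3.89% of the 16076 genes tested were) or *Ocn*−/− forebrains (4.85%), or between them (0.00622%). By edgeR at an unadjusted p under 0.05 there were 1, 3 and 0 of the 18, beside 3267, 3489 and 515 of all genes, and DESeq2 called 1, 1 and 0, beside 899, 1121 and 5 of all. Against the mean of both mutants 1 of 18 was called (5.56%, beside 8.68% of all genes). This was *Tdrkh* (chromosome 3, 94320453 to 94342614, plus strand, ENSMUSG00000041912), with 68.2, 74.2 and 71.7 CPM in WT, 62.1, 50.8 and 53.4 in *Ocn*+/− and 59, 61.2 and 49.3 in *Ocn*−/− forebrains. All 6 mutant forebrains were below all 3 WT forebrains, with a log2 fold change of −0.35 (SE 0.0894, adjusted p = 0.0202). The call was lost without WT 3, the library rich in ribosomal RNA (−0.34, adjusted p = 0.0913), without WT 2 (−0.32, adjusted p = 0.0897) and with library size alone (−0.26, adjusted p = 0.123). In testes the change of *Tdrkh* was −0.37 (SE 0.181, adjusted p = 0.202), and between the tissues the mutant effect differed by −0.03 (SE 0.169, adjusted p = 0.964).

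*Ret* and *Brdt* were expressed in both tissues, which allows their genotype effect to be compared between them. In forebrain *Ret* had 6.8 to 8.46 CPM in WT and 6.95 to 10.7 in mutant pups, with 0.16 (SE 0.166, adjusted p = 0.589), and *Brdt* had 6.4 to 9.3 CPM in WT and 6.29 to 10.2 in mutant pups, with 0.07 (SE 0.179, adjusted p = 0.848). When the mutant effect in testes was tested against that in forebrain, 0 of 43 genes were called, beside 2.96% of all 17800 genes. Of the 43, only 18 passed the filter on low counts in forebrain, so the 0 says little of the others. At an unadjusted p under 0.05 there were 7, beside 3327 of all genes. They were led by *Brdt* with a difference of −1.16 (SE 0.323, adjusted p = 0.051) and *Ret* with 0.74 (SE 0.222, adjusted p = 0.0685). DESeq2 called these 2 genes (adjusted p = 0.0232 and 0.0387), beside 1019 of all. The others were *Piwil4* (2.97, SE 0.972, adjusted p = 0.0974), *Morc1* (−2.91, SE 1.08), *Lin28a* (2.93, SE 1.33), *Ddx4* (−0.97, SE 0.452) and *Tdrd7* (−0.42, SE 0.17). For *Tdrd9*, *Sohlh2*, *Lin28a*, *Stk31*, *Dnmt3l*, *Piwil4* and *Morc1* the forebrain had at most 11 counts per library, so their forebrain effects rest on few reads.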

How the data were processed

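RNA of testes and forebrain was poly(A)-selected, and per the labels reads were trimmed with Trim Galore 0.6.6, aligned with STAR 2.7.8a and counted with RSEM 1.3.3 on GRCm39. The authors deposited RSEM's expected counts per gene, unnormalized, in 1 table. Because RSEM shares ambiguous reads between genes, values were not whole in 9625 genes and were rounded. The GENCODE release and the strandedness are not given in the sources used here. Symbols and positions came from GENCODE vM39 (54749 of 55359 identifiers matched, 45 of 45 members). The 45 members and all gene lists were chosen with earlier results of these data known.

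R 4.3.3 and edgeR 4.0.16 were used: TMM normalization, filterByExpr by group and robust quasi-likelihood tests, two-sided, without covariates, on each tissue with all genotypes together and on both tissues jointly for tissue contrasts. The study names edgeR without a design. The biological coefficient of variation was 0.153 in testes and 0.115 in forebrain. Fold changes are log2 with SE. The fits were also run on simulated counts with known changes. These had the same spread for all genes of a fit, so they do not test how the calls depend on the spread of single genes. Full values are given for members called in a genotype comparison and for the member of each of 9 roles with the highest level per kilobase, and other lists by their called genes, at most 6 each. The motifs were chosen after the members. Of the 45 members, 25 share no stretch of 50 bases with another gene's transcripts and 35 share under 5% of them. The alternatives tried were DESeq2 1.42.0, scaling by library size alone or by upper quartile, other filters, the likelihood ratio test, only 2 groups, a replicate block and each library left out. Replicate numbers were not taken as pairs. Deviations of same-numbered testes correlated by −0.09 to 0.09 over 7 pairs, and of forebrains by −0.04 to 0.15 over 9, 2 of them over 0.1. Those of testes with forebrains correlated by 0.01 to 0.14 over 8 pairs, 3 of them over 0.1. Libraries of different numbers were not compared in this way, so these values cannot exclude pairing. Whether testes and forebrains came from the same pups is not stated, and the joint fit took them as independent. Some items are not reported here.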

Additional observations from a re-analysis of the deposited data

How the results depend on the processing

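The call of *Tdrd9* for both mutants held in all 15 alternatives. The number called in *Ocn*−/− testes, 3, was 6 under DESeq2, the likelihood ratio test and no filter on low counts, and 5 with only the 2 groups compared, where 1323, 1567, 1763 and 905 of all genes were called in place of 922. In forebrain *Ocn*+/− pups the 0 became 1 under upper quartile normalization, DESeq2, no filter, the likelihood ratio test and only 2 groups, in *Ocn*−/− pups 1 under DESeq2, no filter and the likelihood ratio test, and for both mutants the 1 became 0 under library size alone. These calls were *Tdrkh*. Between tissues 40 became 9 with at least 10 counts in every library, where 11 of the 45 could be tested, and these were 5 higher and 4 lower in place of 36 and 4. The tissue difference of the mutant effect, 0, was 2 under DESeq2, no filter and at least 10 counts, 3 under the likelihood ratio test and 1 with the replicate block. Replicate numbers were not taken as pairs, and the replicate block changed no other count by over 1.5 times. With the block *Piwil4* was called in *Ocn*+/− and *Ocn*−/− testes (adjusted p = 0.0355 and 0.0352), and *Stk31* was no longer called in *Ocn*+/− testes.

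With each library left out in turn, the number called ran from 0 to 11 in *Ocn*+/−, 0 to 5 in *Ocn*−/− and 1 to 11 for both mutants in testes (118 to 2019, 85 to 1559 and 125 to 2497 over all genes), and was 0 between the mutant genotypes. It ran from 0 to 1 in *Ocn*+/−, was 0 in *Ocn*−/− and ran from 0 to 1 for both mutants in forebrain, from 40 to 41 between tissues and from 0 to 1 for the tissue difference. The median log2 fold changes ran from −0.10 to 0.10, −0.12 to 0.09 and −0.11 to 0.10 in testes (*Ocn*+/−, *Ocn*−/−, both) and −0.01 to 0.04 between the mutants, and in forebrain from −0.07 to 0.09, −0.04 to 0.09, −0.03 to 0.09 and 0.00 to 0.11.

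Library size alone moved the medians to 0.03, 0.07 and 0.05 in testes and 0.06, 0.12 and 0.11 in forebrain, and that of all genes to 0.08, 0.07 and 0.07, and to 0.09, 0.11 and 0.1. In forebrain at least 10 counts gave 0.05 in *Ocn*−/− and 0.04 between mutants, and no filter gave 0.07 for both. Small values changed sign: *Sall4* to 0.02, 0.07 and 0.04 and *Dmrt1* to 0.03, 0.07 and 0.05 under library size alone, *Sall4* to 0.02 in *Ocn*−/− and 0.00 for both with the replicate block and to 0.00 with 2 groups, and *Dmrt1* in *Ocn*−/− to 0.00 under DESeq2 and 0.01 with 2 groups. With each library left out, *Sall4* ran from −0.15 to 0.01, −0.07 to 0.06 and −0.08 to 0.03 (*Ocn*+/−, *Ocn*−/−, both), *Dmrt1* from −0.21 to 0.16, −0.12 to 0.16 and −0.15 to 0.12, and *Dazl* from −0.19 to 0.03 in *Ocn*−/− and −0.18 to 0.01 for both. The causes were not tested.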
